A study of Mus musculus with 12 samples.

Results

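The Slc25 genes encode the mitochondrial carriers, a family of membrane proteins that move metabolites across the inner mitochondrial membrane. They were measured in mouse hearts on bead arrays, and they were chosen by name, as all probes whose gene symbol in the platform annotation starts with Slc25. The rule found 76 probes for 46 genes among the 45281 probes of the array. Of these, 53 probes for 36 genes were detected on at least 2 of the 12 arrays, and those 36 genes were tested among 14240 genes in all. The symbol names the family, not the place of the protein, so the list also holds Slc25a46 of the outer mitochondrial membrane and Slc25a17 of the peroxisome.

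Many carriers of this family exchange 1 kind of small molecule for another, and so help set what the matrix of the mitochondrion can take in or give out. Heart muscle draws most of its energy from fatty acids, which reach the matrix as acylcarnitines through the carnitine-acylcarnitine carrier. ATP leaves through the adenine nucleotide translocases, phosphate comes in through its own carrier, and the electrons of cytosolic NADH come in by way of the malate-aspartate shuttle.

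The series crossed a genotype with a virus in hearts of adult male C57Bl/6J mice. VEGFR1, the receptor for VEGF-B that Flt1 encodes, had been deleted from endothelial cells with tamoxifen in mice that carry Cdh5-Cre-ERT2 and Flt1 flox/flox. An adeno-associated virus was injected intraperitoneally, either one for VEGF-B or one with a scramble sequence. The groups were WT_Scramble (3 arrays), WT_VEGFB (2 arrays), VEGFR1del_Scramble (3 arrays) and VEGFR1del_VEGFB (4 arrays). All 4 groups received a virus. The labels do not say whether the wild-type mice carried floxed alleles or Cre, or were given tamoxifen, and they give neither the promoter in the virus nor the dose and time. Cdh5 drives the Cre in endothelial cells of all organs, so the deletion was not limited to the heart. The labels number the arrays of a group without naming animals, so the p-values measure the spread between these samples.

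Flt1 was read on every array as a check of the labels. Its log2 signal was 10.79 to 11.51 on the 5 wild-type arrays and 8.19 to 9.47 on 6 of the 7 VEGFR1-deleted arrays, but it was 11.56 on the array labelled VEGFR1del_Scramble 3, above the highest wild-type value. The signal of Vegfb lay between 12.43 and 12.90 on all arrays, and whether its probe reads the viral transcript is not known. Tests that use the VEGFR1del_Scramble group are therefore given with the array labelled VEGFR1del_Scramble 3 and, for the counts and for the genes called in them, also without it. A second table of the authors shows from its values that they had normalized the arrays in 3 sets. WT_Scramble 1 to 3 and VEGFR1del_Scramble 1 and 2 formed set 1. WT_VEGFB 1 and 2 shared set 2 with the array labelled VEGFR1del_Scramble 3, and the VEGFR1del_VEGFB arrays formed set 3 alone. The reason for the sets is not given in the sources used here. Any comparison with VEGFR1del_VEGFB is thus also a comparison between sets, and group and set cannot be told apart there. VEGF-B in wild type is likewise a comparison of set 2 with set 1. Only the array labelled VEGFR1del_Scramble 3 links those sets within a group. All values here were normalized over the 12 arrays together.

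The start regions of 4 Slc25 genes are printed because these genes carry the main finding. Slc25a34, Slc25a12 and Slc25a20 fell with the smallest p-values and Slc25a45 rose with the smallest in the comparison of VEGF-B with deletion against neither. The sequences are RefSeq's for GRCm38.p6, each 250 bases before to 50 bases after an annotated start, on the strand of the gene. They lie at chr4:141623785-141624084 (minus strand) for Slc25a34, chr2:71367706-71368005 (minus) for Slc25a12, chr9:108661886-108662185 (plus) for Slc25a20 and chr19:5877572-5877871 (plus) for Slc25a45. Capitals mark letters that match a searched motif, and there are none in the last 3.
Slc25a34: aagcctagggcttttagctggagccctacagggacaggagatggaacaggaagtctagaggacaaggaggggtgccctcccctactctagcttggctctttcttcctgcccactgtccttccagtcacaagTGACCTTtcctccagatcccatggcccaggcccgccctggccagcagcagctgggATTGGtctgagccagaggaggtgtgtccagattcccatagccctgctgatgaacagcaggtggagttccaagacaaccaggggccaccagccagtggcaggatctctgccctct
Slc25a12: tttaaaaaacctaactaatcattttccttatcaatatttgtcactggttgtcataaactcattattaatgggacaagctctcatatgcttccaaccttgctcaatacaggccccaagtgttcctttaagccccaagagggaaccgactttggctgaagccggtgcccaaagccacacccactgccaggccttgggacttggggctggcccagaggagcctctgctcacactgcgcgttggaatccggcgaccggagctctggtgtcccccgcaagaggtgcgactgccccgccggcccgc
Slc25a20: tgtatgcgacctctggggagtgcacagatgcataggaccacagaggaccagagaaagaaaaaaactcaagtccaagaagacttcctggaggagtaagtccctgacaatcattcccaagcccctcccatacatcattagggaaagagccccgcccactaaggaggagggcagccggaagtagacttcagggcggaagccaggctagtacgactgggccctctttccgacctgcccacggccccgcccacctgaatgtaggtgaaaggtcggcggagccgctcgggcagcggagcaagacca
Slc25a45: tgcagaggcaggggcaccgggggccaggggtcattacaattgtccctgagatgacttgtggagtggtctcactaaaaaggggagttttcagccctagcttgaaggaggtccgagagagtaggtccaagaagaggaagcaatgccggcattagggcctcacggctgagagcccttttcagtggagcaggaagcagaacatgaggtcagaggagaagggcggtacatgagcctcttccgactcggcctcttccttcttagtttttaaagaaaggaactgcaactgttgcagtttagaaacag
A set of 4 motifs was searched on both strands. AAGGTCA is the core bound by estrogen-related receptors, TNAAGGTCA is its extended form and holds it, CACGTG is the E-box, and CCAAT is bound by NF-Y. In Slc25a34 the capitals are AAGGTCA, read on the other strand as TGACCTT, and CCAAT, read as ATTGG. Of the 13 Slc25 genes that changed in that comparison, 11 had a window. AAGGTCA was in 1 of those 11, against 4.72% of all 32851 windows, CACGTG was in 2 (Slc25a15 and Slc25a33) against 7.15%, and CCAAT in 5 against 37.4%. The extended form was in none of the 11, against 1.28% of all windows. Of the 28 measured Slc25 genes with a window, called or not, 1 held AAGGTCA, 6 held CACGTG and 16 held CCAAT. The Slc25 numbers count genes, and the percentages count windows. Each share describes letters in these windows alone. The Slc25a34 window held 1 CpG at 59.0% GC, that of Slc25a12 held 12 and that of Slc25a20 held 13, where the median over all windows was 7 CpG and 52.7% GC.

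Hearts with both VEGF-B virus and endothelial VEGFR1 deletion differed most from hearts with neither. There 13 of the 36 measured Slc25 genes changed at an adjusted p under 0.05, and 9 of them fell. The largest falls were those of Slc25a34 and Slc25a42, and the largest rise was that of Slc25a45. In bulk heart RNA, fewer cells of a type and less RNA per cell cannot be told apart. The share of 36.1% changed stands against 21% of all genes tested. By direction, 4 Slc25 genes rose (background 11.6%) and 9 fell (background 9.43%). Slc25a30, among those that rose, was not detected on any WT_Scramble array. The median log2 fold change was -0.14 over the 36 genes and -0.03 over all genes, and the values of 17 of the 36 did not overlap between the groups (47.2%, against 31.3% of all genes). With arrays scaled to equal medians instead of equal distributions, 4 rose and 4 fell. Of all 14240 genes, 2251 were called with that scaling, and 83.2% of those calls were rises. Each call rests on limma's moderated test with Benjamini-Hochberg adjustment over all 14240 genes, in 1 model of the 4 groups. With every probe tested by itself, 16 Slc25 genes had at least 1 called probe with both, as did 22.6% of all genes. The same count was 4 in deleted hearts given VEGF-B (4.68% of all genes), 1 in wild-type hearts given VEGF-B (2.12%), and 0 for the deletion with scramble (0.0913%) or with VEGF-B (0%). Without the array labelled VEGFR1del_Scramble 3 the counts were 16 with both (23.5%), 6 in deleted hearts (7.82%), 2 in wild type (3.07%) and 0 for the deletion with scramble (0.0638%) or with VEGF-B (0.0567%). All 13 genes were also called without the array labelled VEGFR1del_Scramble 3. That array is in neither group compared here. Leaving it out touches this comparison only through the normalization, the filter and the spread that the groups share.

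**Figure D1:**
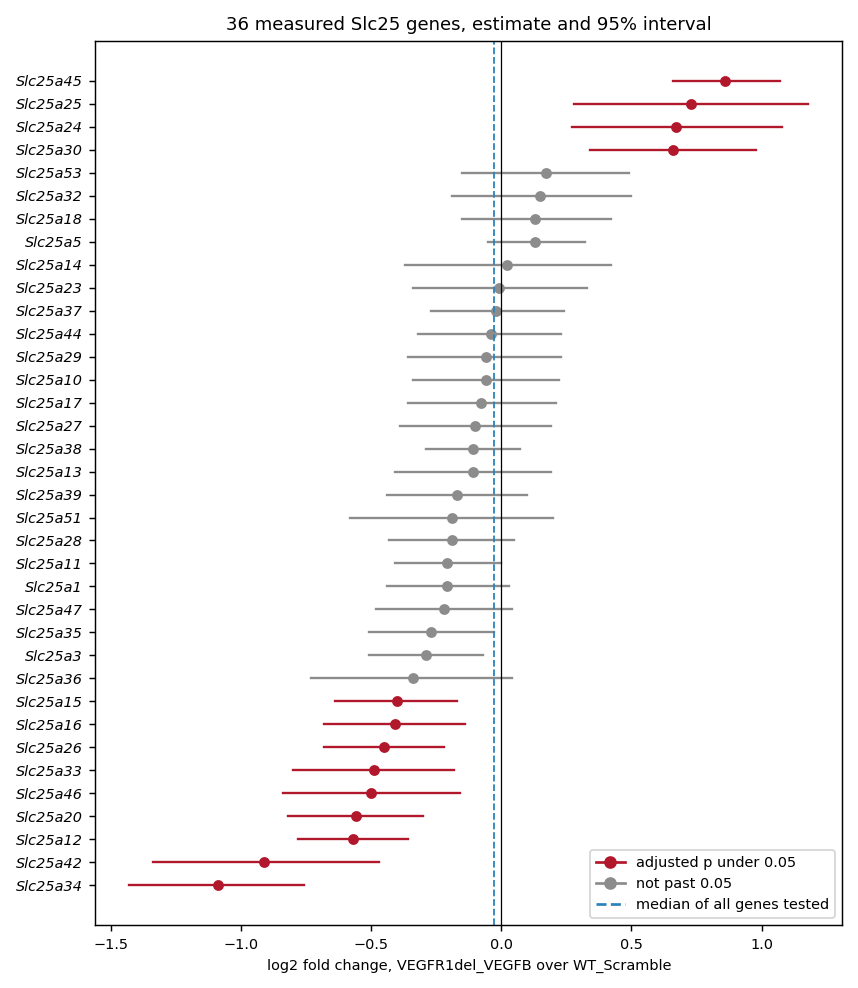
Log2 fold change of VEGFR1del_VEGFB (4 arrays) over WT_Scramble (3 arrays), with its 95% interval, for the 36 measured Slc25 genes in order of the estimate, red where the adjusted p was under 0.05. The estimates run from -1.09 for Slc25a34 to 0.86 for Slc25a45, and the dashed line is the median of all genes tested at -0.03.

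The single steps changed fewer carriers. VEGF-B in wild-type hearts changed 1 of the 36 at an adjusted p under 0.05, Slc25a45, which rose (2.78%, against 1.99% of all genes, with 1.75% for rises and 0.246% for falls). VEGF-B in VEGFR1-deleted hearts changed 3, of which Slc25a45 rose and Slc25a34 and Slc25a26 fell (8.33%, against 4.61% of all genes, with 2.82% for rises and 1.79% for falls). The deletion with scramble virus changed none by limma (background 0.0562%), although 8 Slc25 genes had an unadjusted p under 0.05 (11.4% of all genes did). The deletion on top of VEGF-B changed none of the Slc25 genes and 0% of all genes, with 4 Slc25 genes at an unadjusted p under 0.05 against 11% of all genes. The interaction of virus and genotype changed no Slc25 gene and 0% of all genes, with 2 Slc25 genes at an unadjusted p under 0.05 against 5.04%. At that unadjusted level stood 8 Slc25 genes for VEGF-B in wild type (15.5% of all genes), 10 in deleted hearts (20.4%) and 15 with both against neither (34%). Without the doubted array the unadjusted counts were 5 for the deletion with scramble (8.85% of all genes), 4 for the deletion with VEGF-B (11.9%), 1 for the interaction (5.76%), 9 for VEGF-B in wild type (16.2%), 12 in deleted hearts (23.2%) and 17 with both (34.6%).

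These comparisons share control arrays, so their values are not independent of each other. The median over the 36 Slc25 genes was -0.14 when VEGF-B was added to wild-type hearts, -0.03 when it was added to deleted hearts, and -0.10 when the deletion came on top of either virus, while the median over all genes lay between -0.02 and 0.00. In wild type, the VEGF-B and scramble values of 22 Slc25 genes did not overlap (61.1%, against 33.9% of all genes, in groups of 2 and 3 arrays). The counts of genes with no overlap were 8 for VEGF-B in deleted hearts (22.2%, against 17.8%), 9 for the deletion with scramble (25%, against 15.2%) and 14 for the deletion with VEGF-B (38.9%, against 22.1%). With the doubted array left out, VEGFR1del_Scramble has 2 arrays, and the counts with no overlap were 16 for VEGF-B in deleted hearts (44.4%, against 32.7%) and 10 for the deletion with scramble (27.8%, against 24.1%). They stayed at 22 for VEGF-B in wild type (against 34% of all genes), 14 for the deletion with VEGF-B (22.2%) and 17 with both (31.5%). The Slc25 median was then -0.03 when deleted hearts received VEGF-B, and -0.12 when the deletion came with scramble. Without the array labelled VEGFR1del_Scramble 3, VEGF-B in wild type changed 2 Slc25 genes (background 2.81%), Slc25a34 and Slc25a45. VEGF-B in deleted hearts then changed 5 (background 7.30%), Slc25a20, Slc25a26, Slc25a34, Slc25a45 and Slc25a47. The counts for the deletion stayed at 0 with either virus (backgrounds 0.0638% and 0.0425%). The 2 VEGF-B counts also moved with other arrays. In wild type the count was 0 without any one of WT_Scramble 2, WT_Scramble 3, WT_VEGFB 1 or WT_VEGFB 2. Of all genes, those fits called 27, 53, 12 and 4 in that order, against 284 with all arrays. In deleted hearts the Slc25 count was 0 without any one of VEGFR1del_Scramble 1, VEGFR1del_Scramble 2, VEGFR1del_VEGFB 1 or VEGFR1del_VEGFB 3. It was 1 without VEGFR1del_VEGFB 2 or VEGFR1del_VEGFB 4. Of all genes, the fits with 0 called 40, 28, 238 and 283 in that order. The fits with 1 called 404 and 461, against 656 with all arrays.

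**Figure D2:**
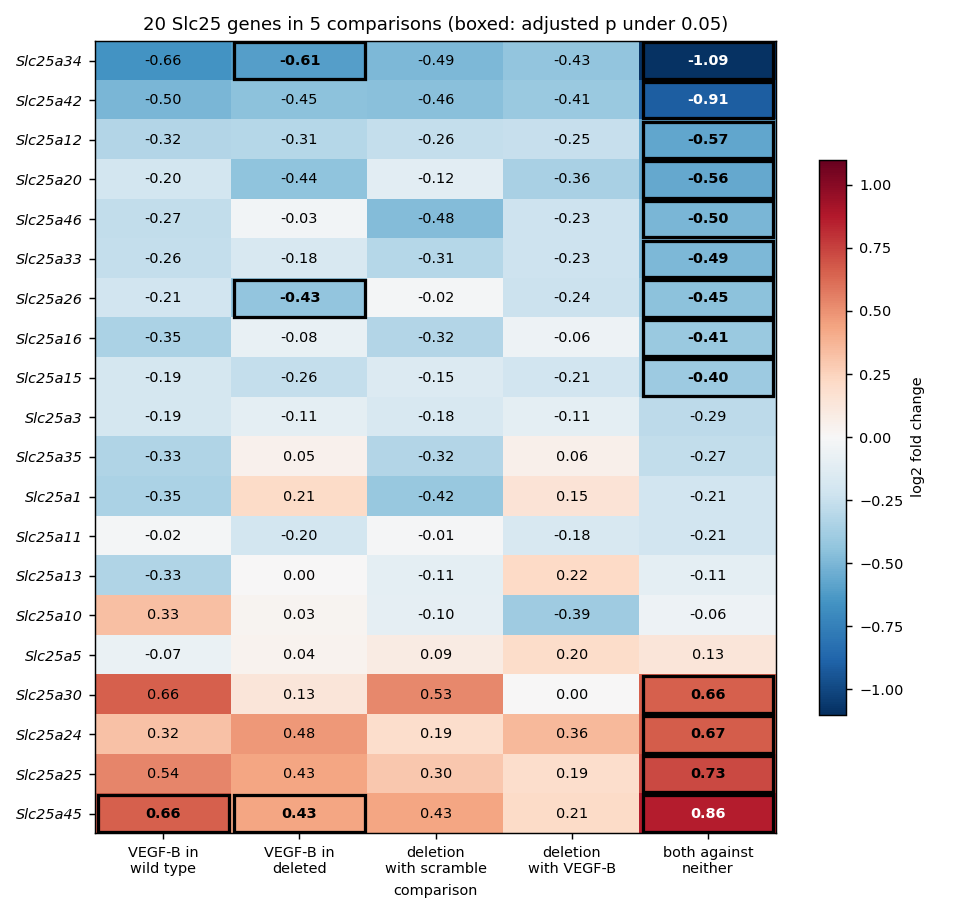
Log2 fold changes of 20 Slc25 genes (rows) in 5 comparisons (columns), with a black box where the adjusted p was under 0.05. The column of both against neither holds 13 boxes, VEGF-B in wild type holds 1, VEGF-B in deleted hearts holds 3, and both deletion columns hold none.

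Among the carriers of ATP, ADP and phosphate, 2 of 5 measured genes rose in hearts with both and none fell (backgrounds 11.6% for rises and 9.43% for falls). Both belong to the calcium-regulated exchangers of ATP-Mg for phosphate, which adjust the adenine nucleotide pool of the matrix. Slc25a25 had log2 signals of 6.14, 5.72 and 6.11 in WT_Scramble, 6.52 and 6.54 in WT_VEGFB, 6.02, 6.11 and 6.74 in VEGFR1del_Scramble, and 6.17, 7.04, 6.80 and 6.85 in VEGFR1del_VEGFB. The WT_VEGFB and VEGFR1del_VEGFB arrays were all above the WT_Scramble arrays, VEGFR1del_VEGFB 1 by little, and the highest of VEGFR1del_Scramble was its doubted replicate 3. Slc25a25 rose by 0.73 ± 0.21 (SE, 4 against 3 arrays; adjusted p = 0.025, limma), and this call was lost without any one of WT_Scramble 2, VEGFR1del_VEGFB 2, VEGFR1del_VEGFB 3 or VEGFR1del_VEGFB 4, and with no filter on dim probes. It shrank to 0.36 with no background correction and to 0.47 with the authors' log2 values, and was called in both.

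Slc25a24 had 5.37, 5.93 and 5.98 in WT_Scramble, 6.08 and 6.08 in WT_VEGFB, 6.23, 5.64 and 5.98 in VEGFR1del_Scramble, and 6.21, 6.30, 6.37 and 6.86 in VEGFR1del_VEGFB. Every VEGFR1del_VEGFB value was above all wild-type values. The rise was 0.67 ± 0.19 (adjusted p = 0.022, limma), but the other detected probes of Slc25a24 gave only 0.09 and 0.08 and were not called. The mean of its probes gave 0.28 (adjusted p = 0.159, limma). The call was also lost with no filter on dim probes, with the replicate number as a block, and without WT_Scramble 1 or VEGFR1del_VEGFB 4. With no background correction the rise was 0.30, still called. The other exchanger of this kind, Slc25a23, had a log2 fold change of -0.01.

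The phosphate carrier Slc25a3 supplies ATP synthase with phosphate. It had 12.95, 13.06 and 12.92 in WT_Scramble, 12.76 and 12.82 in WT_VEGFB, 12.96, 12.60 and 12.84 in VEGFR1del_Scramble, and 12.75, 12.75, 12.67 and 12.57 in VEGFR1del_VEGFB. All WT_VEGFB and VEGFR1del_VEGFB values lay under those of WT_Scramble, yet the difference of -0.29 ± 0.10 missed the threshold (adjusted p = 0.0572, limma). Its second probe gave -0.32 and was not called either.

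Slc25a5 encodes adenine nucleotide translocase 2. Its signals were 12.76, 12.77 and 12.94 in WT_Scramble, 12.81 and 12.70 in WT_VEGFB, 12.87, 12.90 and 12.97 in VEGFR1del_Scramble, and 12.96, 12.93, 12.96 and 12.98 in VEGFR1del_VEGFB. The WT_Scramble and VEGFR1del_VEGFB ranges overlapped, and the difference was 0.13 with a 95% interval from -0.05 to 0.32. Slc25a4, whose product is the main adenine nucleotide translocase of heart muscle, could not be followed. Its single probe, ILMN_1225312, gave 83.8 to 101.1 on the linear scale of the deposited signals and was detected on 0 arrays, so no level of Slc25a4 is given.

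The malate-aspartate shuttle needs an aspartate-glutamate carrier and the oxoglutarate carrier. Of the 6 measured carriers of this shuttle and of di- and tricarboxylates, 1 fell with both and none rose (background 9.43% for falls). That was Slc25a12, which encodes aralar, the calcium-stimulated aspartate-glutamate carrier of heart and other excitable tissues. Slc25a12 had 10.44, 10.61 and 10.48 in WT_Scramble, 10.10 and 10.29 in WT_VEGFB, 10.21, 10.21 and 10.35 in VEGFR1del_Scramble, and 9.83, 10.08, 9.94 and 9.93 in VEGFR1del_VEGFB. No value of WT_Scramble overlapped another group, and no value of VEGFR1del_VEGFB did. The fall with both was -0.57 ± 0.10 (adjusted p = 0.00132, limma). Adding VEGF-B gave -0.32 in wild type and -0.31 in deleted hearts, and the deletion gave -0.26 with scramble and -0.25 with VEGF-B, none of them called. Without the doubted array, the deleted-heart value was -0.27 and the deletion with scramble gave -0.30, again not called. The second detected probe of Slc25a12 gave -0.33 with both and was not called.

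Slc25a13 encodes citrin, the liver form of the same carrier. Its signals were 4.91, 5.34 and 4.82 in WT_Scramble, 4.71 and 4.67 in WT_VEGFB, 4.90, 4.83 and 5.03 in VEGFR1del_Scramble, and 4.85, 5.10, 4.67 and 5.05 in VEGFR1del_VEGFB. It was detected on 2 of 3 arrays of WT_Scramble and on none of WT_VEGFB, and the difference with both was -0.11 (adjusted p = 0.63, limma). The oxoglutarate carrier Slc25a11, which exchanges malate for 2-oxoglutarate, had 11.88, 11.95 and 11.86 in WT_Scramble, 11.77 and 11.97 in WT_VEGFB, 11.87, 11.95 and 11.83 in VEGFR1del_Scramble, and 11.57, 11.66, 11.66 and 11.86 in VEGFR1del_VEGFB. All but 1 of the VEGFR1del_VEGFB values lay under the wild types and VEGFR1del_Scramble. The probe used for Slc25a11 gave -0.21 and was not called (adjusted p = 0.153), a second gave -0.19, and another, ILMN_2600053, gave -0.49 and was called when each probe was tested by itself (adjusted p = 0.0437, limma, where 19.4% of all probes were called).

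The citrate carrier Slc25a1 exports citrate to the cytosol, where it serves lipid synthesis. It had 6.79, 6.78 and 6.49 in WT_Scramble, 6.20 and 6.47 in WT_VEGFB, 6.27, 6.26 and 6.28 in VEGFR1del_Scramble, and 6.45, 6.62, 6.49 and 6.36 in VEGFR1del_VEGFB. WT_VEGFB and VEGFR1del_Scramble both lay under WT_Scramble, while VEGFR1del_VEGFB overlapped it. Slc25a1 had the largest interaction among the Slc25 genes, 0.56 ± 0.17 (unadjusted p = 0.00535, adjusted p = 0.975, limma), which did not pass, and 0.57 (adjusted p = 0.793) without the doubted array. Its second detected probe, ILMN_2619846, gave an interaction of -0.72 (-0.69 without that array), the other way, also not called. The dicarboxylate carrier Slc25a10, which exchanges malate or succinate for phosphate, had 6.24, 6.58 and 6.67 in WT_Scramble, 6.77 and 6.88 in WT_VEGFB, 6.52, 6.17 and 6.50 in VEGFR1del_Scramble, and 6.24, 6.53, 6.56 and 6.40 in VEGFR1del_VEGFB. Only the 2 WT_VEGFB values stood above the rest of its 12 values, and the deletion with VEGF-B gave -0.39 ± 0.15 (adjusted p = 0.366, limma).

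Among the carriers of carnitine and amino acids, 2 of 5 measured genes fell with both and none rose (background 9.43% for falls). Slc25a20 encodes the carnitine-acylcarnitine carrier, through which long-chain fatty acids enter the matrix. It had 12.31, 12.61 and 12.43 in WT_Scramble, 12.29 and 12.20 in WT_VEGFB, 12.37, 12.53 and 12.09 in VEGFR1del_Scramble, and 11.73, 11.87, 11.96 and 11.99 in VEGFR1del_VEGFB. All 4 VEGFR1del_VEGFB values lay under every other array, and the lowest of the rest was the array labelled VEGFR1del_Scramble 3. Slc25a20 fell with both by 0.56 ± 0.12 on the log2 scale (adjusted p = 0.00511, limma). Its second detected probe, ILMN_3061070, fell by 1.00 (adjusted p = 0.000328 over all probes). VEGF-B in deleted hearts gave -0.44 ± 0.12 for the probe used, which just missed the threshold at an adjusted p of 0.0546, and -0.56 (adjusted p = 0.0193) without the array labelled VEGFR1del_Scramble 3. The second probe was called in that comparison at -0.84 (adjusted p = 0.0131 over all probes, of which 3.62% were called), and at -0.97 (adjusted p = 0.00418) without that array.

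Slc25a15, the ornithine carrier of the urea cycle, also fell with both. It had 7.33, 7.44 and 7.43 in WT_Scramble, 7.17 and 7.25 in WT_VEGFB, 7.47, 7.09 and 7.20 in VEGFR1del_Scramble, and 7.04, 7.08, 7.05 and 6.82 in VEGFR1del_VEGFB. Every VEGFR1del_VEGFB value was under all other arrays, and VEGFR1del_VEGFB 4 was the lowest. The fall was -0.40 ± 0.11 (adjusted p = 0.0179, limma), with -0.24 and no call for its second detected probe. It was lost with median scaling (-0.23, adjusted p = 0.372) and with the authors' log2 values (-0.13, adjusted p = 0.153, both limma). The call also ended with the replicate number as a block and without WT_Scramble 2 or WT_Scramble 3. The other measured members, Slc25a29 for basic amino acids, Slc25a38 for glycine and Slc25a44 for branched-chain amino acids, had changes of -0.06, -0.11 and -0.04 with both. For Slc25a38 the probe ILMN_2946901 was called by itself at -0.40 (adjusted p = 0.0157 over all probes), while the probe used and another were not.

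**Figure D3:**
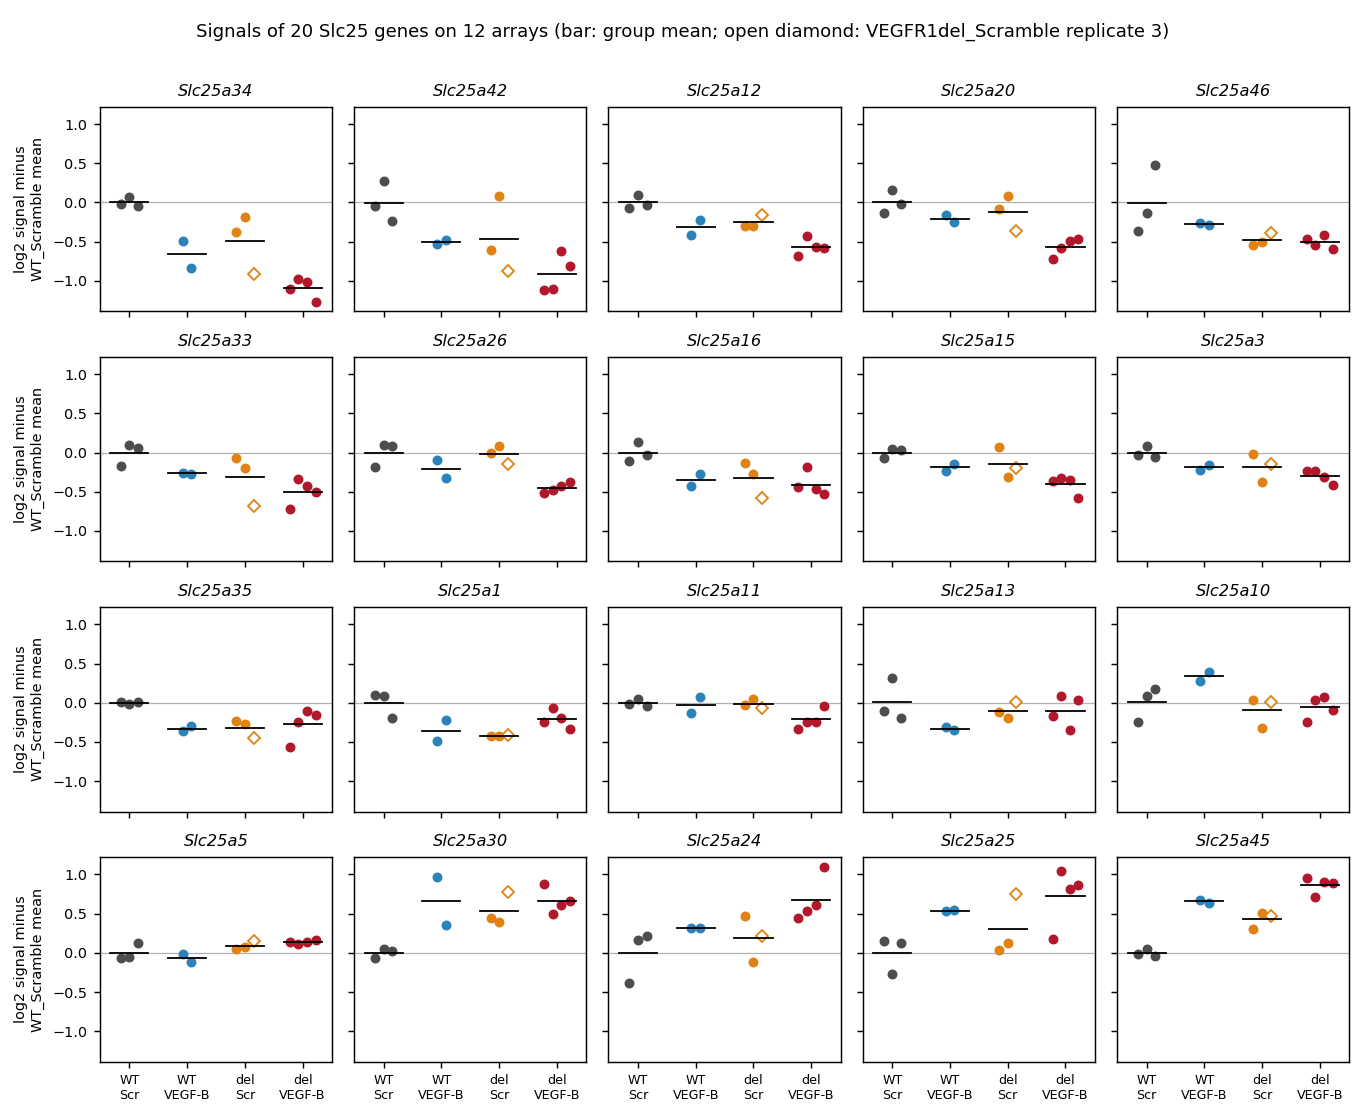
Log2 signal of 20 Slc25 genes on each of the 12 arrays (points), as the difference from the WT_Scramble mean of the gene, with a bar at each group mean; Scr is the scramble virus and del the VEGFR1 deletion. For Slc25a34, Slc25a12, Slc25a20, Slc25a26 and Slc25a15 all 4 VEGFR1del_VEGFB points lie under all other points, and for Slc25a45 all 4 lie above. The share of all genes set apart in this way was not counted. Over all genes, 31.3% had no overlap between VEGFR1del_VEGFB and WT_Scramble. The VEGFR1del_VEGFB arrays are also the whole of set 3, so group and set cannot be told apart. The open diamond is the array labelled VEGFR1del_Scramble 3.

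Of the carriers of cofactors, nucleotides, glutathione and iron, the group with the most measured genes, 4 of 10 fell with both and none rose (background 9.43% for falls). Slc25a42 carries coenzyme A into the matrix in exchange for adenine nucleotides. It had 8.55, 8.87 and 8.37 in WT_Scramble, 8.07 and 8.12 in WT_VEGFB, 7.99, 8.68 and 7.73 in VEGFR1del_Scramble, and 7.48, 7.50, 7.98 and 7.79 in VEGFR1del_VEGFB. WT_VEGFB and VEGFR1del_VEGFB lay wholly under WT_Scramble, while VEGFR1del_Scramble spread across them. Slc25a42 fell with both by 0.91 ± 0.20 on the log2 scale, 1.88-fold (adjusted p = 0.00635, limma). Its second detected probe gave -0.14 and was not called, the mean of its probes gave -0.52, and the authors' log2 values gave -0.56, both called.

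Slc25a26 carries S-adenosylmethionine, the methyl donor, into the matrix. Its signals were 9.08, 9.37 and 9.36 in WT_Scramble, 9.17 and 8.95 in WT_VEGFB, 9.26, 9.36 and 9.12 in VEGFR1del_Scramble, and 8.75, 8.79, 8.85 and 8.90 in VEGFR1del_VEGFB. The 4 VEGFR1del_VEGFB arrays lay under all 8 others, and the other 3 groups overlapped. It fell with both by 0.45 ± 0.11 (adjusted p = 0.00956, limma), which of the alternatives run only median scaling ended, while the authors' log2 values gave -0.26, still called. In deleted hearts VEGF-B gave -0.43 ± 0.11 (adjusted p = 0.0406) with all arrays and -0.49 (adjusted p = 0.029) without the doubted one. With all arrays that call was lost without any one of the VEGFR1del_VEGFB arrays or VEGFR1del_Scramble 1 or 2. It was also lost with median scaling (-0.25, adjusted p = 0.35, limma), with the replicate number as a block and in a fit of the 2 compared groups alone.

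Slc25a33, a pyrimidine nucleotide carrier, had 8.68, 8.95 and 8.91 in WT_Scramble, 8.59 and 8.58 in WT_VEGFB, 8.78, 8.65 and 8.17 in VEGFR1del_Scramble, and 8.13, 8.51, 8.42 and 8.35 in VEGFR1del_VEGFB. The VEGF-B groups lay under WT_Scramble, and within VEGFR1del_Scramble the doubted replicate 3 was low. Slc25a33 fell with both by 0.49 ± 0.14 (adjusted p = 0.0268, limma), a call lost with the authors' log2 values (-0.27, adjusted p = 0.0581). That call was also lost with median scaling and with the replicate number as a block. It was lost without WT_Scramble 2, WT_Scramble 3, VEGFR1del_VEGFB 1 or VEGFR1del_VEGFB 4 as well. Slc25a16, a carrier tied to coenzyme A supply, had 8.87, 9.11 and 8.95 in WT_Scramble, 8.55 and 8.71 in WT_VEGFB, 8.85, 8.71 and 8.40 in VEGFR1del_Scramble, and 8.54, 8.79, 8.51 and 8.45 in VEGFR1del_VEGFB. Every array of the other 3 groups was under WT_Scramble, and those 3 groups overlapped each other. The fall with both was -0.41 ± 0.13 (adjusted p = 0.0353, limma), lost under 9 of 25 alternatives, among them the authors' log2 values (-0.21, adjusted p = 0.0997) and median scaling. It was also lost without any one of WT_Scramble 2, WT_Scramble 3, VEGFR1del_VEGFB 1, VEGFR1del_VEGFB 3 or VEGFR1del_VEGFB 4.

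Of the other members of this group, Slc25a36, a second pyrimidine nucleotide carrier, had -0.34 (not called), with 1 of its other probes, ILMN_2434798, called by itself at -0.45 (adjusted p = 0.0179 over all probes). The iron carriers mitoferrin 1 and 2 (Slc25a37 and Slc25a28) had -0.02 and -0.19, and the glutathione carrier Slc25a39 had -0.17. The NAD carrier Slc25a51 had -0.19 and the folate carrier Slc25a32 had 0.15. None of these passed the test with both.

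The uncoupling protein-like members, Slc25a14, Slc25a27 and Slc25a30, were grouped with Slc25a34 and Slc25a35, which have no settled substrate. Of these 5 measured genes 1 rose and 1 fell with both (backgrounds 11.6% for rises and 9.43% for falls). Slc25a34 had 10.12, 10.21 and 10.09 in WT_Scramble, 9.65 and 9.31 in WT_VEGFB, 9.76, 9.96 and 9.23 in VEGFR1del_Scramble, and 9.03, 9.16, 9.13 and 8.87 in VEGFR1del_VEGFB. WT_Scramble was above every other array, VEGFR1del_VEGFB was under every other array, and the doubted array was the lowest of VEGFR1del_Scramble. With both, Slc25a34 fell by 1.09 ± 0.15, 2.14-fold (adjusted p = 0.000361, limma), the largest fall of the family. Its 3 detected probes gave -1.09, -1.38 and -0.75, each called.

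The single steps of Slc25a34 all pointed down. VEGF-B in deleted hearts gave -0.61 ± 0.15 (adjusted p = 0.0441, limma) with all arrays and -0.82 (adjusted p = 0.00572) without the array labelled VEGFR1del_Scramble 3. With all arrays that call was lost under 14 of 25 alternatives, among them median scaling and the removal of any one array of WT_Scramble or VEGFR1del_VEGFB, VEGFR1del_Scramble 1 or VEGFR1del_Scramble 2. VEGF-B in wild type gave -0.66 ± 0.19 (adjusted p = 0.0938) with all arrays and -0.66 (adjusted p = 0.0245) without that array. With the authors' set as a fixed block the wild-type value was -0.03 (adjusted p = 0.989, limma). Only the array labelled VEGFR1del_Scramble 3 parts set from group in that fit, so the value rests on it. The deletion with scramble gave -0.49 ± 0.17 (adjusted p = 0.253), or -0.28 between the arrays of set 1 alone, which leaves out the doubted one.

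Slc25a30, known as kidney mitochondrial carrier protein 1, rose with both. It had 4.79, 4.90 and 4.87 in WT_Scramble, 5.82 and 5.20 in WT_VEGFB, 5.29, 5.24 and 5.62 in VEGFR1del_Scramble, and 5.73, 5.35, 5.46 and 5.51 in VEGFR1del_VEGFB. It was not well above background on any WT_Scramble array and was detected on every array of the other 3 groups. Against the detection floor of WT_Scramble it was at least 1.52-fold higher with both, at least 1.52-fold with VEGF-B in wild type and at least 1.39-fold with the deletion and scramble, or 1.28-fold there without the doubted array. The fold is that of the bright group's mean over the lowest detected signal of the dim arrays or the dim probe's own, whichever is higher. With both, the test gave an adjusted p of 0.00677 (limma), and the single steps missed the threshold at 0.0807 and 0.191. Slc25a30 passed the filter only through the groups where it was higher, so this test is not separate support for the rise. On the log2 scale the fitted rise of 0.66 shrank to 0.34 with a larger offset, to 0.26 with the authors' log2 values and to 0.21 with no background correction, and it was called each time.

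Slc25a35 had 6.38, 6.35 and 6.38 in WT_Scramble, 6.01 and 6.07 in WT_VEGFB, 6.14, 6.10 and 5.92 in VEGFR1del_Scramble, and 5.81, 6.13, 6.26 and 6.21 in VEGFR1del_VEGFB. All other arrays were under WT_Scramble, but with both the difference of -0.27 ± 0.11 missed the threshold (adjusted p = 0.112, limma). Slc25a14 and Slc25a27, which encode brain-type uncoupling proteins, had 0.02 and -0.10.

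Slc25a46, an outer membrane protein that takes part in mitochondrial fission and lipid supply, had 5.33, 5.57 and 6.18 in WT_Scramble, 5.44 and 5.41 in WT_VEGFB, 5.16, 5.19 and 5.31 in VEGFR1del_Scramble, and 5.23, 5.16, 5.28 and 5.11 in VEGFR1del_VEGFB. WT_Scramble 3 stood high within its group, and both deleted groups lay under all WT_Scramble values. The fall with both was -0.50 ± 0.16 (adjusted p = 0.0368, limma), or -0.26 (adjusted p = 0.123) without WT_Scramble 3, and it was lost under 13 of 25 alternatives. Among these were no background correction (-0.18), the authors' log2 values (-0.12) and the removal of WT_Scramble 2 or any VEGFR1del_VEGFB array. Slc25a17, which carries coenzyme A and related nucleotides in the peroxisome membrane, had -0.08.

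Slc25a45, a carrier placed here with those of no settled substrate, gave the smallest p of the family. It had 7.23, 7.29 and 7.20 in WT_Scramble, 7.91 and 7.88 in WT_VEGFB, 7.54, 7.75 and 7.71 in VEGFR1del_Scramble, and 8.20, 7.95, 8.14 and 8.13 in VEGFR1del_VEGFB. The 4 groups did not overlap, in the order WT_Scramble, VEGFR1del_Scramble, WT_VEGFB and VEGFR1del_VEGFB from low to high. With both, Slc25a45 rose by 0.86 ± 0.09, 1.82-fold (adjusted p = 8.31e-05, limma). VEGF-B raised it by 0.66 ± 0.11 in wild type (adjusted p = 0.0169) and by 0.43 ± 0.09 in deleted hearts (adjusted p = 0.0255), or by 0.45 (adjusted p = 0.0284) there without the doubted array. The wild-type call was lost without any one of WT_Scramble 2, WT_Scramble 3, WT_VEGFB 1 or WT_VEGFB 2. The call in deleted hearts was lost without any one of VEGFR1del_Scramble 1, VEGFR1del_Scramble 2, VEGFR1del_VEGFB 1 or VEGFR1del_VEGFB 3, with a replicate block and in a fit of the 2 compared groups alone. The deletion with scramble gave 0.43 ± 0.10 (adjusted p = 0.092), or 0.41 (adjusted p = 0.284) without the doubted array, and the deletion with VEGF-B gave 0.21 ± 0.11 (adjusted p = 0.512). With the authors' set as a fixed block the wild-type rise was 0.60 and was no longer called (adjusted p = 0.639, limma, in a fit in which 3 genes in all were called). That fit rests on the doubted array alone to part set from group. Slc25a47 and Slc25a53, also of no settled substrate, had -0.22 and 0.17 with both. Slc25a47 was called only for VEGF-B in deleted hearts without the doubted array (-0.46, adjusted p = 0.0248).

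Of the 13 carriers that changed with both, 6 (Slc25a12, Slc25a20, Slc25a30, Slc25a34, Slc25a42 and Slc25a45) were called under all 25 alternatives. None of these alternatives could tell set from group in that comparison. Some of them left out an array of WT_VEGFB or VEGFR1del_Scramble, which are not the groups compared there. The setting of every probe by itself took the probe of smallest p of each gene, which favours a call. Slc25a30 passed the filter only through the groups where it was higher. Slc25a18, the second glutamate carrier, had 0.13 with both and was detected on at most 1 array of any group. The 10 members not measured were Slc25a2, Slc25a4, Slc25a21, Slc25a22, Slc25a31, Slc25a40, Slc25a41, Slc25a43, Slc25a48 and Slc25a54. Their 15 probes gave 83.8 to 112.3 on the linear scale and were detected on 0 arrays, where the array medians ran from 98.7 to 111.5. Slc25a31 is a translocase of the testis in mouse, and Slc25a22 is the first glutamate carrier. Of the 36 measured genes, 30 were detected on all 12 arrays by the probe used.

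Carriers of the family that go by other symbols were read as well. Ucp3, uncoupling protein 3 of muscle mitochondria, fell furthest. It had 7.61, 8.24 and 7.17 in WT_Scramble, 5.85 and 5.97 in WT_VEGFB, 5.92, 7.02 and 5.98 in VEGFR1del_Scramble, and 4.72, 4.87, 5.51 and 4.92 in VEGFR1del_VEGFB, where it was detected on 3 of 4 arrays. Each other group lay under WT_Scramble, and VEGFR1del_VEGFB lay under all. The change was -2.67 ± 0.29 with both (adjusted p = 8.31e-05, limma), -1.76 for VEGF-B in wild type (adjusted p = 0.023) and -1.30 in deleted hearts (adjusted p = 0.0261), or -1.47 (adjusted p = 0.0208) there without the doubted array. Mtch2, a carrier homologue of the outer membrane, fell with both by 0.40 (adjusted p = 0.0178), Mtch1 had 0.24 (adjusted p = 0.0648), Ucp1 was not detected and no probe was named Ucp2.

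The partners of the carriers were counted in lists. All 4 measured genes of the carnitine shuttle fell with both, with a median of -0.54: Crat by 0.68, Cpt2 by 0.58, the carnitine importer Slc22a5 by 0.50 and Cpt1b by 0.31. Cpt1a was not detected. Cpt2, which releases the acyl group in the matrix after the carrier has delivered it, also fell by 0.51 with VEGF-B in deleted hearts (adjusted p = 0.0359, limma), and by 0.63 (adjusted p = 0.0144) without the doubted array. Of 3 measured malate-aspartate enzymes, the malate dehydrogenases Mdh1 and Mdh2 each fell by 0.39 with both. Mdh2 fell by 0.35 with VEGF-B in deleted hearts (adjusted p = 0.04), and by 0.40 (adjusted p = 0.0292) without that array.

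Of 8 measured genes for the import of carriers into the inner membrane, Tomm40 fell by 0.44 and Timm29 by 0.31. Of 3 outer membrane channels, Vdac3 fell by 0.30. Among 12 other inner membrane transporters, Slc8b1, the mitochondrial sodium-calcium exchanger, rose by 0.50, and Nnt, Abcb8 and Sfxn2 fell by 0.58, 0.50 and 0.49. Of 7 genes of the creatine kinase and ATP synthase core, Atp5a1 fell by 0.80. Of 10 genes of mitochondrial content and biogenesis, Cs, the citrate synthase, fell by 0.44, Ppargc1a by 0.50, Ppargc1b by 0.38 and Esrrg by 0.49, and none rose. Ppargc1a also fell by 0.77 with VEGF-B in wild type (adjusted p = 0.0293, limma). Read against the background of 9.43% for falls, each list is short, and the counts describe these genes alone.

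**Figure D4:**
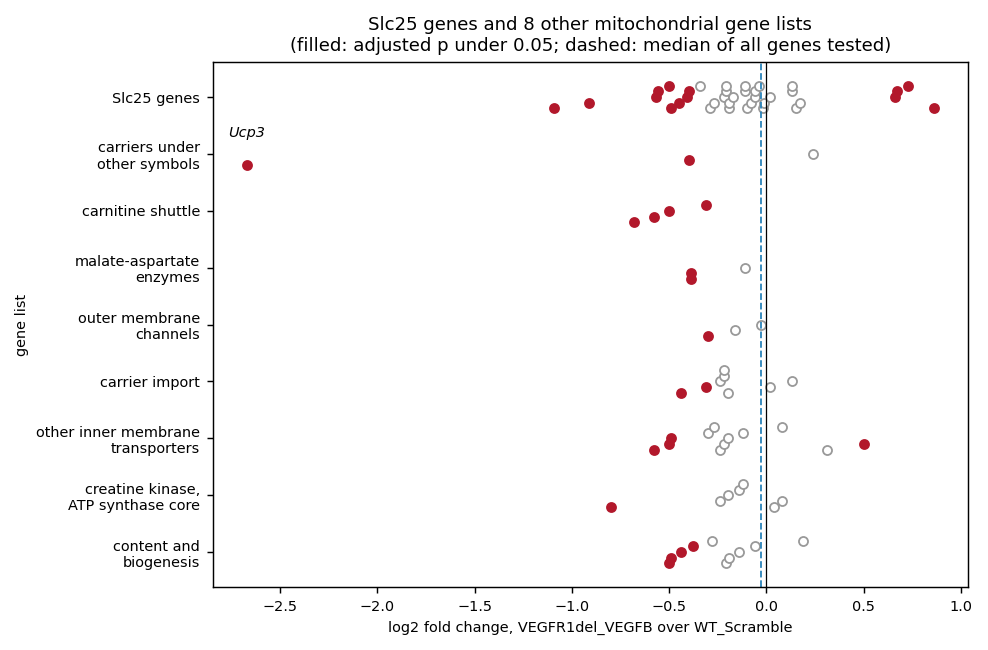
Log2 fold change of VEGFR1del_VEGFB over WT_Scramble for the 36 Slc25 genes and for each measured gene of 8 other mitochondrial lists, filled where the adjusted p was under 0.05. All 4 carnitine shuttle genes are filled and under 0, Ucp3 lies farthest out at -2.67, and the dashed line is the median of all genes tested.

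Markers of the cell types of the heart were read on the same arrays. With both, 7 of 8 endothelial markers rose (median 0.91) and 4 of 5 pericyte markers rose (median 0.98). Over all genes tested, 11.6% rose and 9.43% fell in that comparison. The summed linear signal of the endothelial markers was 9972 to 10900 in WT_Scramble, 16631 to 17426 in WT_VEGFB, 13615 to 18064 in VEGFR1del_Scramble and 20531 to 21662 in VEGFR1del_VEGFB, and the highest value of VEGFR1del_Scramble was the doubted array, without which that group had 13615 to 13952. The pericyte sums were 2293 to 2558, 3526 to 3536, 2901 to 3642 and 3870 to 4362 in the same order, with 2901 to 3148 in VEGFR1del_Scramble without the doubted array. Of the 7 measured cardiomyocyte markers none rose and 1 fell, with sums of 90706 to 93238 in WT_Scramble and 91806 to 94972 in VEGFR1del_VEGFB. The part of the endothelial and pericyte signal in the Slc25 changes was not tested.

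Other lists were read for tissue taken along. The adipocyte markers Adipoq, Plin1, Cidec, Lep and Ucp1, the skeletal muscle markers Myh1, Myh4 and Tnnt3, and the atrial markers Myl7 and Sln were not detected. The measured adipocyte marker, Cidea, fell with both by 0.41, from a signal of 811 to 946 in WT_Scramble to 549 to 737 in VEGFR1del_VEGFB. The 2 measured genes of the skeletal muscle list, Acta1 and Ckm, were not called. Their sum was 21138 to 22966 in WT_Scramble and 27828 to 29356 in VEGFR1del_VEGFB, with no overlap. Of all genes tested, 31.3% had no overlap in that comparison. Of the 2 measured genes of the atrial list, Myl4 and Nppa, 1 rose with both. The atrial sum was 5848 to 7519 in WT_Scramble and 12009 to 22029 in VEGFR1del_VEGFB. Whether the signals of the skeletal muscle and atrial lists came from such tissue was not tested. Of 3 measured neutrophil markers 2 rose (sum 77 to 118 against 164 to 299), of 6 fibroblast markers 1 rose and 2 fell, and of 4 macrophage and 6 erythroid markers none was called. The shares over all genes were 11.6% for rises and 9.43% for falls. The part of these markers in the Slc25 changes was not tested either.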

How the data were processed

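Heart RNA of 12 samples in 4 groups was hybridised as biotinylated cRNA, 1 array each, per the labels' protocols. The deposited table gives the probe intensity on a linear scale, neither normalized nor background-subtracted. Beside each intensity stands a detection p-value, as the deposited table's header names it. The authors' other table holds log2 values, normalized in 3 sets as found from the values. Its method is not given in the sources used here, and it served as an alternative. The median intensity per array was 98.7 to 111.5, and 16685 to 18210 probes were detected per array. The number of arrays limits the precision.

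Signals were background corrected from the detection p and quantile normalized by the steps of neqc in limma 3.58.1 (R 4.3.3, offset 16). Probes with a detection p under 0.05 on at least 2 arrays were kept (20312), and a gene was its probe with the highest mean (14240 genes). The platform annotation gave 34885 probes 1 symbol, 18 several and 10378 none, and the last 2 kinds kept their probe name. A single model of group means was fitted over the 12 arrays (lmFit, eBayes). All 6 contrasts were tested, two-sided, with Benjamini-Hochberg adjustment over all genes and a call at an adjusted p under 0.05. The model fit was tested on simulated log2 values of genes, which held no difference between sets. The background correction, normalization, filter and choice of probe were not part of that test.

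The members and lists were chosen with earlier results of these data known. Array values are given for Slc25 genes called in any contrast, for the carriers of ATP export, the malate-aspartate shuttle and carnitine, and for the 3 of smallest p where fewer than 3 were called. Alternatives changed the offset, the background step, the scaling, the dim-probe filter, how a gene's probe was chosen, the variance prior, the weights, the table, the blocks and the arrays. The set as a fixed block and every probe by itself were added after seeing the data. Same-numbered arrays of different groups were checked for pairing. In 15 pairs the correlation of deviations ran from -0.04 to 0.11, 1 over 0.1, so numbers were not taken as pairs. Matched start regions were found for 36 of 46 genes in RefSeq (GRCm38.p6). Python 3.11.15 with matplotlib 3.10.9 drew the figures.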

Additional observations from a re-analysis of the deposited data

Results flagged for a closer look

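Slc25a15 in VEGFR1del_VEGFB replicate 4 stood apart from the other 3 arrays of its group, with a log2 signal of 6.82 against 7.04 to 7.08. The gap to the nearest array exceeded Dixon's critical value for 4 samples. It was the only one of 20 Slc25 genes tested in that group to do so, and chance alone marks about 1 in 20 such groups.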

How the results depend on the processing

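Across the alternatives, no called Slc25 gene changed its sign. The count of changed Slc25 genes for VEGF-B in wild type was 1 in the main fit. It became 2 with no background correction, an offset of 50, median scaling, a trended and robust variance or array weights. It was 0 with the authors' set as a fixed block. Of all genes, the fits with 2 called 453, 439, 553, 491 and 444 in that order. The fixed block called 3 genes in all and the main fit 284. The fixed block rests on the array labelled VEGFR1del_Scramble 3 alone to part set from group. For VEGF-B in deleted hearts the count was 3. It became 5 with no background correction, an offset of 50 or the trended and robust variance, and 6 with the authors' log2 values. Of all genes, those fits called 1081, 1019, 1030 and 1770 in that order, against 656 in the main fit. The Slc25 count was 0 in that comparison with a replicate block and with the arrays of the 2 groups alone. Of all genes, 370 and 184 were called there. The deletion with scramble had 1 with the authors' log2 values in place of 0, and 95 of all genes in place of 8. With both against neither, 13 became 8 with median scaling (4 rose and 4 fell, against 4 and 9). Of all genes, 2251 were called there, against 2994 in the main fit. The causes were not tested. Under median scaling the median over all genes was 0.12 in both VEGF-B comparisons and 0.06 with both against neither, and 83.2% of its calls there were rises. Leaving out 1 array at a time gave 0 to 2 for VEGF-B in wild type and 0 to 5 for VEGF-B in deleted hearts. It gave 0 for the deletion with either virus and for the interaction. With both against neither it gave 8 to 14, the lowest without WT_Scramble 2 or VEGFR1del_VEGFB 4. Of all genes, those fits called 4 to 397 for VEGF-B in wild type, 28 to 1031 in deleted hearts and 2135 to 3082 with both. They called 4 to 21 for the deletion with scramble, 0 to 6 for the deletion with VEGF-B and 0 to 1 for the interaction. The replicate block gave 1 for VEGF-B in wild type, 0 in deleted hearts, 9 with both against neither and 0 elsewhere. Of all genes, it called 275 in wild type, 370 in deleted hearts and 2469 with both. Nothing in the labels says that the numbers pair arrays.

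Groups of 2 to 4 arrays limit the precision of every value, and Slc25a13, Slc25a14, Slc25a18, Slc25a27, Slc25a30 and Slc25a51 were not detected on every array.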
